A study of Mus musculus with 33 samples.

Results

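The protein-coding genes of the cytosolic ribosome were followed through 11 sorted mouse cell subsets from a model of tolerance to islet xenografts. Members were chosen by gene name alone: protein-coding symbols of the mouse GRCm38 annotation that start with Rpl or Rps and a digit, together with Rplp0, Rplp1, Rplp2 and Rpsa, leaving out the Rps6k kinases and pseudogenes. This gave 86 genes of 31054 features, 52 with large-subunit symbols, 33 with small-subunit symbols, and Rps19bp1. The last of these met the naming rule although it encodes a protein that binds Rps19 and is no subunit of the ribosome. All 86 passed the filter on low counts, and 83 had a mean of at least 10 CPM (counts of a gene relative to the TMM-scaled total of its library) over all libraries. Rpl39l, Rpl3l and Rpl10l were below that level.

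All mice were DEREG mice, which carry a diphtheria toxin receptor fused to eGFP under the Foxp3 promoter, so that Tregs were sorted as CD4+GFP+ cells. Tolerant mice had received 4000 islet equivalents of porcine neonatal islet cell clusters under the renal capsule. They were given MR-1, an antibody against CD154, in repeated doses of 500 µg per mouse, and CTLA4-Fc in 1 dose of 500 µg, and their cells were taken at day 100. Naive mice had neither a transplant nor treatment. Tregs made up 7 subsets: SP/naive from the spleen of naive mice, SP/CD127–/lo and SP/CD127hi from the spleen of tolerant mice, graft Tregs, and 3 subsets (DLN/naive, and DLN/CD127–/lo with DLN/CD127hi of tolerant mice) from the lymph node that drains the kidney. The other 4 subsets were CD4+GFP– cells, called CD4+ here, and CD45+CD4– cells from the spleen of naive and tolerant mice. Each subset had 3 libraries, which the study describes as pools of mice. The tolerant mice came from separate transplant experiments, and which mice went into which library is not stated, so that subsets may share mice. For the naive groups it is also unclear how the pools relate to single animals. The model treats the libraries as independent, and the p-values below measure only the spread between these libraries, which may be partly technical. Ages are not given in the sources used here.

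A NextSeq 500 was used for the 24 libraries of spleen and graft, which held 2550698 to 4615283 counts on genes. A MiSeq was used for the 9 DLN libraries, which held 844039 to 1935323 counts, so that lymph node and instrument cannot be told apart. The limit that a count of 0 allows, 3 counts, was 0.650 to 1.18 CPM in the first set and 1.55 to 3.55 CPM in the second, for counting error only. The summed level of Treg markers was 5059 to 19340 CPM in Treg libraries and 523 to 1814 CPM in CD4+ libraries. B cell markers summed to 7188 to 14953 CPM in CD45+CD4– libraries and to 517 to 862 CPM in CD4+ libraries. Naive CD4+ replicate 2 stood apart from the other libraries of its subset, with 20097 genes with counts, the highest of all libraries, and the highest share of counts on the members. For the comparisons with naive CD4+ cells, the members past a threshold and the median over all members are given with and without it. Unless stated otherwise, all other values include it. Among these are levels, shares, the difference between comparisons, and medians or calls split by coding length, by bases at the start site or by gene list.

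A cytosolic ribosome joins a small subunit, which reads the mRNA, to a large subunit, which forms the peptide bond, and each protein is present in about equal number in a complete particle. Most of these mRNAs start with a C followed by a run of pyrimidines, the 5′ terminal oligopyrimidine (TOP) motif. Through this motif their translation is controlled by mTORC1 and the RNA-binding protein LARP1. In T cells, making ribosomes is part of leaving the resting state, and resting cells keep a large store of these mRNAs.

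The members together took 2.95% to 11.2% of the counts on genes in single libraries. Reads that mapped to several places are not in these counts. Shares and levels of members with similar copies elsewhere in the genome may therefore be too low, and by how much was not tested. Naive CD4+ cells had the highest mean share of the 11 subsets, 8.30% ± 2.79 (SD, n = 3), with 5.60%, 11.2% and 8.11% in replicates 1 to 3. In tolerant CD4+ cells the share was 4.67% ± 0.823 (SD, n = 3), with 5.48%, 3.83% and 4.69%. The highest tolerant library was thus just below the lowest naive library. CD45+CD4– cells had 6.81% ± 1.88 in naive and 5.34% ± 0.824 in tolerant mice (SD, n = 3 each), with overlapping libraries. Among splenic Tregs the means were close to each other, at 6.07% ± 0.943 in SP/naive, 6.21% ± 1.29 in SP/CD127–/lo and 6.10% ± 1.56 in SP/CD127hi Tregs (SD, n = 3 each). Graft Tregs had 4.52% ± 0.208 (SD, n = 3), the smallest spread of any subset, and the 3 DLN subsets had means of 3.24% to 3.74%. No test was run on these shares. In libraries scaled to their own total, fewer cells of a type and less RNA per cell cannot be told apart, and a lower share can also come with more of other RNAs.

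**Figure D1:**
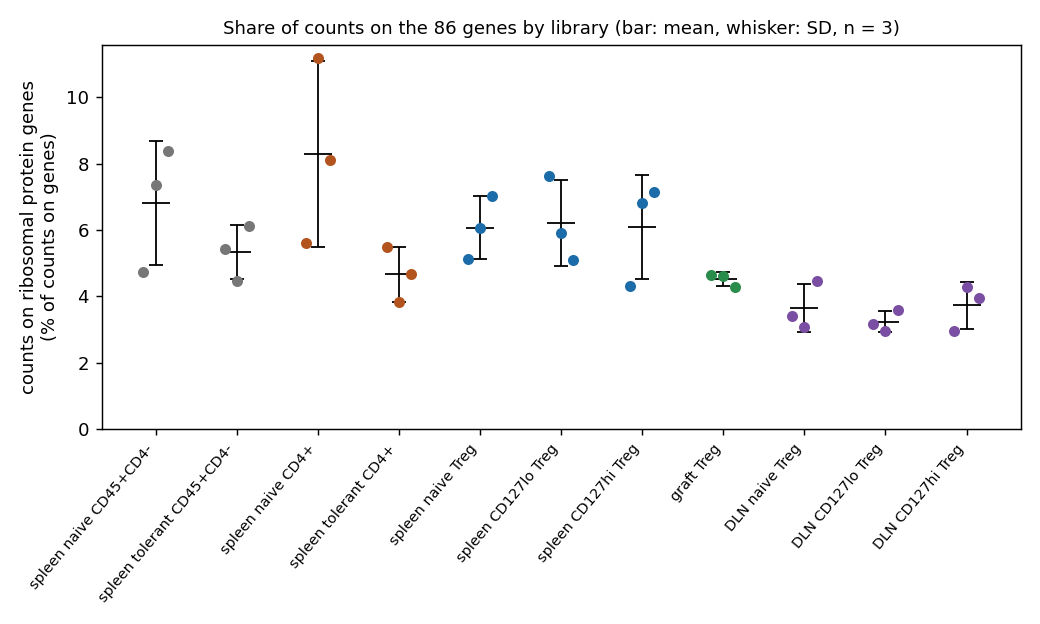
Share of counts on genes that fell on the ribosomal protein genes, in percent, for the 33 libraries of the 11 subsets, with the mean and SD of 3 libraries. Naive CD4+ libraries lie between 5.60% and 11.2%, tolerant CD4+ libraries between 3.83% and 5.48%, and DLN libraries have the lowest means.

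The count was not carried by a few genes, as the 10 highest members held 30.5% of the counts on members. Large- and small-subunit genes contributed about equally. The ratio of large- to small-subunit counts was lowest in naive CD4+ replicate 2, at 0.792, and was 0.994 to 1.05 in DLN/CD127–/lo libraries. Per kilobase of exon, Rps27 had the highest mean level over all libraries (3362 CPM per kilobase), followed by Rplp1 (1694), Rps29 (1504), Rpl36 (1453) and Rpl32 (1270). The lowest levels per kilobase of exon were those of Rpl10l (0.079), Rpl3l (0.250), Rpl39l (3.53), Rpl13a (9.46) and Rpl36al (13.6). The order depends on the length used, here the union of all annotated exons. It may also depend on the reads left out because they mapped to several places. Per kilobase of coding sequence the highest were Rps27 (13913), Rpl41 (11658), Rps29 (6203), Rpl39 (5578) and Rps19 (5334), and the lowest were the same genes. Rpl13a shares its place with the annotated gene Gm45713, and Rps27 has a near-identical copy, the member Rps27rt, so that reads of both may have been lost or split in the counting.

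Of the 83 genes with at least 10 CPM, 66 had their highest group mean in naive CD4+ cells and 10 in SP/CD127–/lo Tregs. Among the subsets of spleen and graft alone, 35 were lowest in tolerant CD4+ cells, 24 in tolerant CD45+CD4– cells and 16 in graft Tregs. The median CPM of these genes was 903 in naive CD4+ and 477 in tolerant CD4+ cells, 679 and 545 in naive and tolerant CD45+CD4– cells, 622, 709 and 598 in SP/naive, SP/CD127–/lo and SP/CD127hi Tregs, and 491 in graft Tregs. In the DLN it was 401, 344 and 361 in naive, CD127–/lo and CD127hi Tregs.

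**Figure D2:**
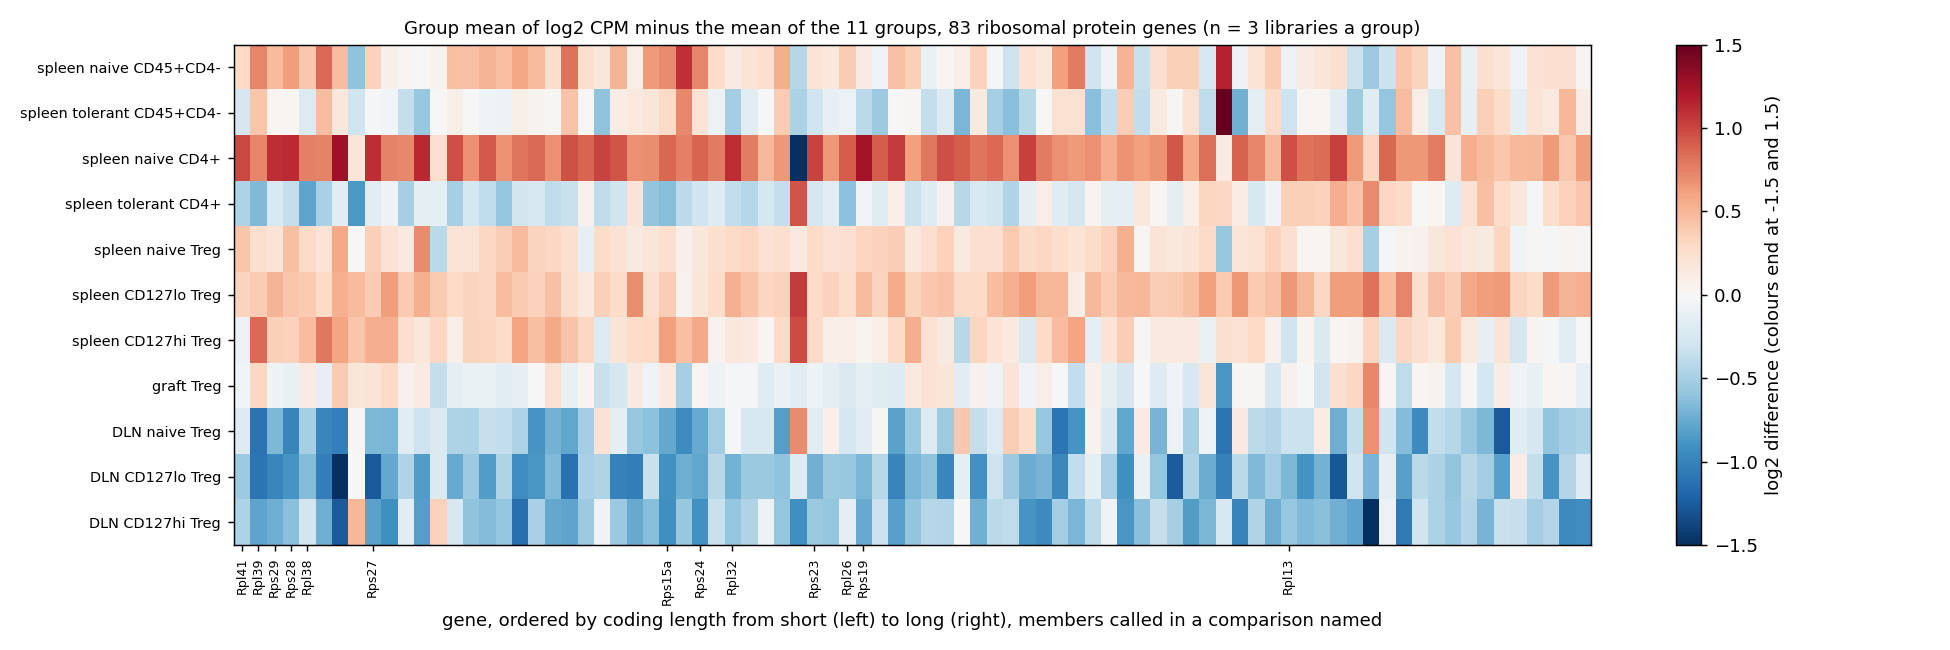
Group means of the 83 genes with a mean of at least 10 CPM, as log2 CPM relative to each gene's mean over the 11 subsets, with genes in order of coding length and the members called in a comparison named. The naive CD4+ row holds the highest value of 66 genes, and the DLN rows hold most of the lowest.

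The comparison of tolerant with naive CD4+ cells asked whether Foxp3– T cells of tolerant mice differ from those of untreated mice. In it, 12 of 86 members were called lower and none higher at an adjusted p under 0.05 in edgeR's quasi-likelihood test, where 0.0907% of all genes tested were called lower. These 12 were among 23 genes called lower and 27 called in all. Another 38 members were lower at an unadjusted p under 0.05, 50 in all, against a background of 4.49%. The median log2 fold change of the members was -1.01, against -0.23 over all genes and 0.03 over genes with a mean log2 CPM over 3, and 83 of the 86 estimates were below 0. The number of calls changed with the test and with single libraries. The likelihood ratio test of edgeR and a model of the 6 compared libraries alone each called 0 members, DESeq2 called 8 and limma voom 5. Without naive CD4+ replicate 2 only Rps27 was called, 33 members had an unadjusted p under 0.05 and the median was -0.73. Leaving out tolerant replicate 2 left 2 called members, tolerant replicate 3 left 4 and tolerant replicate 1 left 7. Leaving out naive replicate 1 gave 19 and naive replicate 3 gave 8.

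Of the 12, 7 are small-subunit genes. Rps27 (ENSMUSG00000090733, chromosome 3, 90212522 to 90213651, minus strand), which encodes a zinc-binding protein, had 4289, 10108 and 6750 CPM in naive and 3304, 2530 and 2441 CPM in tolerant CD4+ cells. All naive libraries were above all tolerant libraries, and the log2 fold change was -1.35 ± 0.22 (SE, adjusted p = 2.3e-05). Rps15a (ENSMUSG00000008683, chromosome 7, 118104372 to 118116188, minus strand) had 1173, 3946 and 2444 CPM in naive and 835, 768 and 776 CPM in tolerant cells, a log2 fold change of -1.67 ± 0.29 (SE, adjusted p = 0.000103). The tolerant libraries lay within a narrow band, while the naive libraries ranged widely. Rps19 (ENSMUSG00000040952, chromosome 7, 24884371 to 24889806, plus strand), mutated in Diamond-Blackfan anemia, had 3135, 7477 and 5060 CPM in naive and 2904, 1365 and 2072 CPM in tolerant cells. Its log2 fold change was -1.31 ± 0.25 (SE, adjusted p = 0.000812), and the lowest naive library was only slightly above the highest tolerant library.

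Rps24, another Diamond-Blackfan anemia gene, had 895, 2904 and 1834 CPM in naive and 819, 741 and 687 CPM in tolerant cells, with a log2 fold change of -1.33 ± 0.32 (SE, adjusted p = 0.0377). Rps23, whose protein sits at the decoding centre, had 1145, 2668 and 2120 CPM in naive and 913, 668 and 764 CPM in tolerant cells. The remaining small-subunit genes were Rps29, which encodes another zinc-binding protein (1194, 3132 and 2119 against 988, 618 and 801 CPM), and Rps28 (636, 1983 and 1200 against 467, 361 and 408 CPM). In each of these genes the naive and tolerant libraries did not overlap, and replicate 2 was the highest naive library.

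The other 5 belong to the large subunit. Rpl32 (ENSMUSG00000057841, chromosome 6, 115805505 to 115808747, minus strand) had 1450, 3569 and 2456 CPM in naive and 1098, 636 and 848 CPM in tolerant cells, with a log2 fold change of -1.53 ± 0.32 (SE, adjusted p = 0.00437). Rpl41, which encodes the smallest protein of the ribosome, had 952, 2387 and 1768 CPM against 721, 482 and 568 CPM. Rpl39, whose protein lines the exit tunnel of the growing peptide, had 777, 1862 and 1246 CPM against 481, 465 and 439 CPM. Rpl26 (791, 1702 and 1231 against 497, 371 and 381 CPM) and Rpl38 (513, 1511 and 801 against 345, 228 and 314 CPM) completed the group. Rpl38 is known for its part in the translation of Hox mRNAs in the embryo. These 5 genes had the same order of libraries in naive cells, with replicate 1 lowest and replicate 2 highest. The log2 fold changes of the 9 genes other than Rps27, Rps15a and Rps19 were between -1.67 and -1.33, and their adjusted p-values were 0.00437 to 0.0377.

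**Figure D3:**
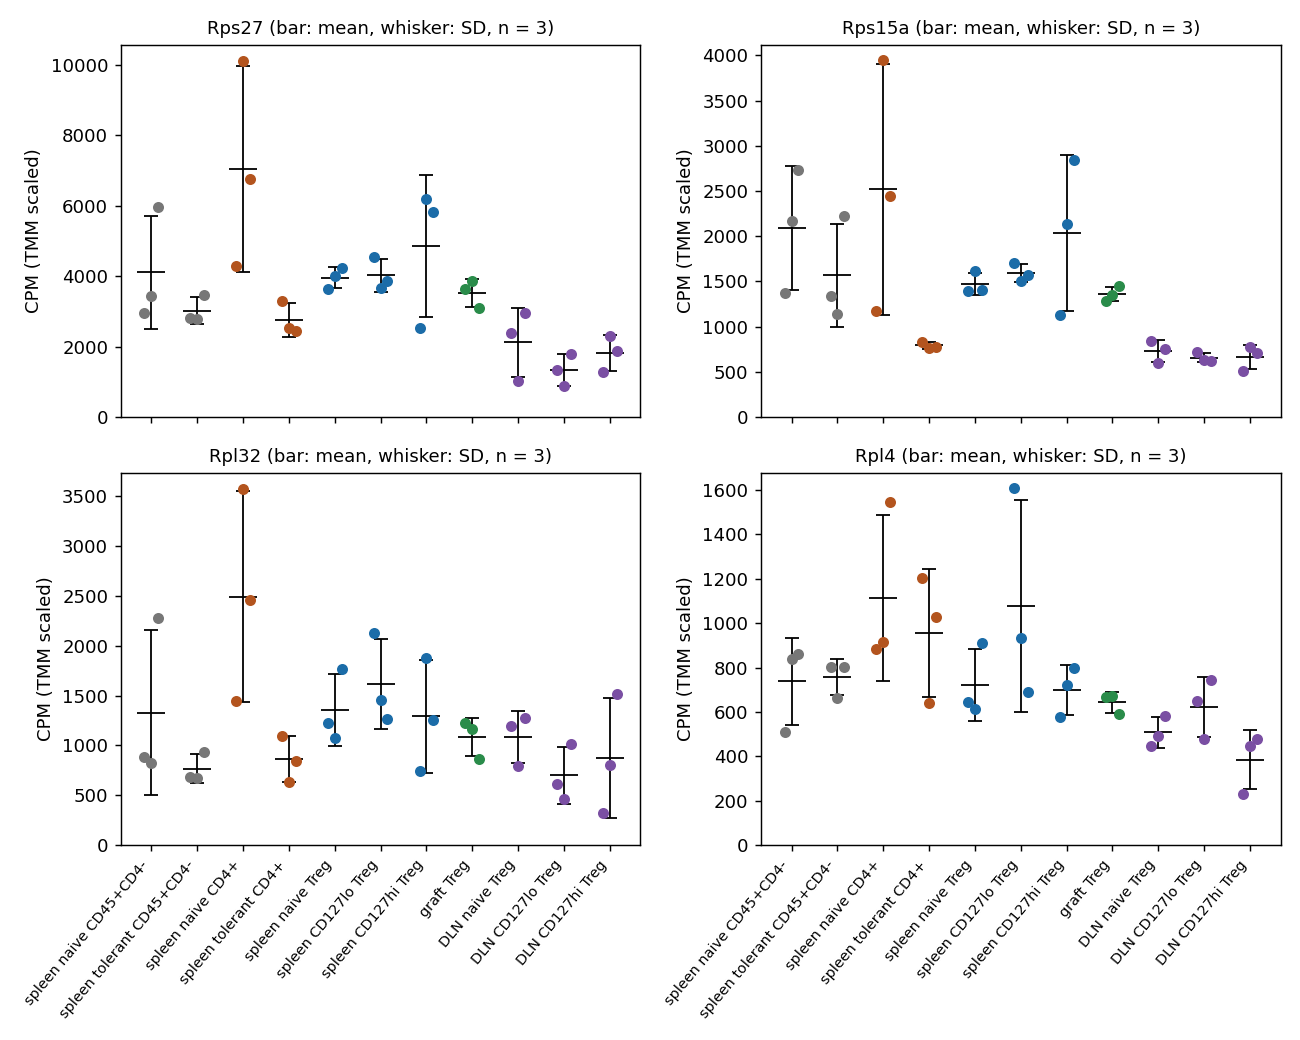
CPM of Rps27, Rps15a, Rpl32 and Rpl4 in each of the 33 libraries, with the mean and SD of 3 libraries. Tolerant CD4+ libraries of Rps27, Rps15a and Rpl32 lie below the naive CD4+ libraries, whereas those of Rpl4, at 640 to 1203 CPM, overlap with the naive libraries at 883 to 1546 CPM.

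The other 74 members did not pass the test, and those below are examples, of which Rps2 and Rpl4 were chosen after their values were seen. The stalk that binds elongation factors is made of Rplp0, Rplp1 and Rplp2. Rplp1 had 918, 2300 and 1455 CPM in naive and 730, 464 and 613 CPM in tolerant CD4+ cells, a log2 fold change of -1.37 that narrowly missed the threshold (adjusted p = 0.0601). Rplp2 had a log2 fold change of -1.16, with 532, 1466 and 839 CPM against 540, 316 and 411 CPM, and Rplp0 one of -0.37. Rpsa, also known as the laminin receptor, had 543, 566 and 689 CPM against 779, 365 and 566 CPM, with a log2 fold change of -0.07. Rps2 had 392, 398 and 545 against 561, 336 and 428 CPM, with a log2 fold change of -0.01. Rpl4 had a log2 fold change of -0.22. The 3 highest estimates were those of Rps19bp1 (1.45), Rpl7l1 (0.34) and Rpl13a (0.19), none of which was called.

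The same contrast was made in CD45+CD4– cells, which carried the B cell markers. Their marker sums did not overlap between naive and tolerant mice: B cell markers had 7188 to 10983 CPM in naive and 12982 to 14953 CPM in tolerant libraries, T cell markers 1795 to 2735 and 947 to 1204 CPM, and myeloid markers 137 to 1063 and 1276 to 3106 CPM. Of the listed genes Cd28, Ikzf2 and Malat1 were called lower, and their part in the values below was not tested. None of the members was called there by edgeR's quasi-likelihood test, where 0.0355% of all genes were called, and the likelihood ratio test, DESeq2 and limma voom also called 0. At an unadjusted p under 0.05 there were 4 members (background 4.46%): Rpl32, Rps19 and Rps27 with lower and Rpl39l with higher estimates. The median log2 fold change was -0.36, against 0.00 over all genes. Without naive replicate 3 it was -0.07 with 1 member at an unadjusted p under 0.05, without naive replicate 1 it was -0.60 with 19, and without naive replicate 2 there were 9 such members. Leaving out tolerant replicate 2 gave a median of -0.24. Rps27 had 2953, 3423 and 5948 CPM in naive CD45+CD4– cells and Rps19 had 1782, 1705 and 3786 CPM, so that replicate 3 stood above the other libraries. The difference between the tolerant effects in CD4+ and CD45+CD4– cells was tested as an interaction. No member passed the adjusted threshold (0.0473% of all genes did), and 10 members were more negative in CD4+ cells at an unadjusted p under 0.05, where the background was 3.05%. Among them were Rps15a, with a difference of -1.25 ± 0.40 on the log2 scale (SE), and Rps27, with -0.91 ± 0.31. The median difference over the members was -0.55. The change in CD4+ cells was therefore not shown to differ from that in CD45+CD4– cells.

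Other RNAs moved with the contrast of tolerant and naive CD4+ cells. Malat1, a nuclear noncoding RNA, had 46089, 47470 and 51703 CPM in naive and 24820, 17100 and 12909 CPM in tolerant CD4+ cells (log2 fold change -1.41 ± 0.15, SE, adjusted p = 8.83e-14). T cell markers summed to 7381 to 8955 CPM in naive and 7889 to 9530 CPM in tolerant CD4+ libraries, and none of the 7 was called. B cell markers summed to 517 to 788 CPM and 601 to 862 CPM, and Ebf1 and Ms4a1 were called lower among the 8. Of the Treg markers, Il2ra, the receptor chain for IL-2 that activated T cells also carry, was called higher in tolerant CD4+ cells. Myeloid markers summed to 2.35 to 4.12 CPM in naive and 16.2 to 29.4 CPM in tolerant CD4+ libraries, with none of 10 called. CD8 T and NK cell markers summed to 90.9 to 168 CPM and 188 to 269 CPM, without overlap and with none of 5 called. The 12 mitochondrially encoded genes had a median log2 fold change of -0.61, with 3 lower at an unadjusted p under 0.05 and none called. Tpt1, a TOP mRNA outside the ribosome, had 1209, 2492 and 1790 CPM in naive and 901, 696 and 866 CPM in tolerant CD4+ cells, without overlap, and missed the threshold (log2 fold change -1.16 ± 0.29, SE, adjusted p = 0.0768). It is named outside the rules given below. Eef1a1, an elongation factor gene, had 2291 ± 334 CPM in naive and 2051 ± 767 CPM in tolerant CD4+ cells (SD, n = 3 each), with overlap. The part of these RNAs in the result was not tested.

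The called members were among the shorter ones, a property that was chosen after the values had been seen and gets no test. All 12 called genes were among the 41 members, of the 83 with at least 10 CPM, whose coding sequence was at most 450 nt. These 41 had a median log2 fold change of -1.31 in tolerant against naive CD4+ cells, and the 42 longer members had -0.55. Both medians include naive CD4+ replicate 2, without which only Rps27 of the 12 was called. Spearman's rho between coding length and log2 fold change was 0.78 over the 83 genes and -0.01 over 7236 other protein-coding genes, all measured in the same libraries. Leaving out each library of the comparison in turn gave a rho of 0.72 to 0.80 over the members. The other genes of at most 450 nt, 552 in number, had a median of -0.31 and the longer ones one of 0.08. The ratio of summed CPM of short to long members was 1.08, 1.55 and 1.27 in naive and 0.804, 0.984 and 0.827 in tolerant CD4+ libraries.

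The direction of this relation was not the same in every comparison. It was positive in tolerant against naive CD45+CD4– cells (rho = 0.51) and in SP/CD127–/lo against SP/naive Tregs (rho = 0.57), where other genes had a rho of -0.47. In SP/CD127hi against SP/CD127–/lo Tregs it was negative over members (rho = -0.62) and positive over other genes (rho = 0.44). In that comparison the short members had a median log2 fold change of -0.02 and the long members one of -0.42. SP/CD127hi Tregs had a ratio of short to long members of 1.32 ± 0.25 and SP/CD127–/lo Tregs one of 1.07 ± 0.149 (SD, n = 3 each).

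**Figure D4:**
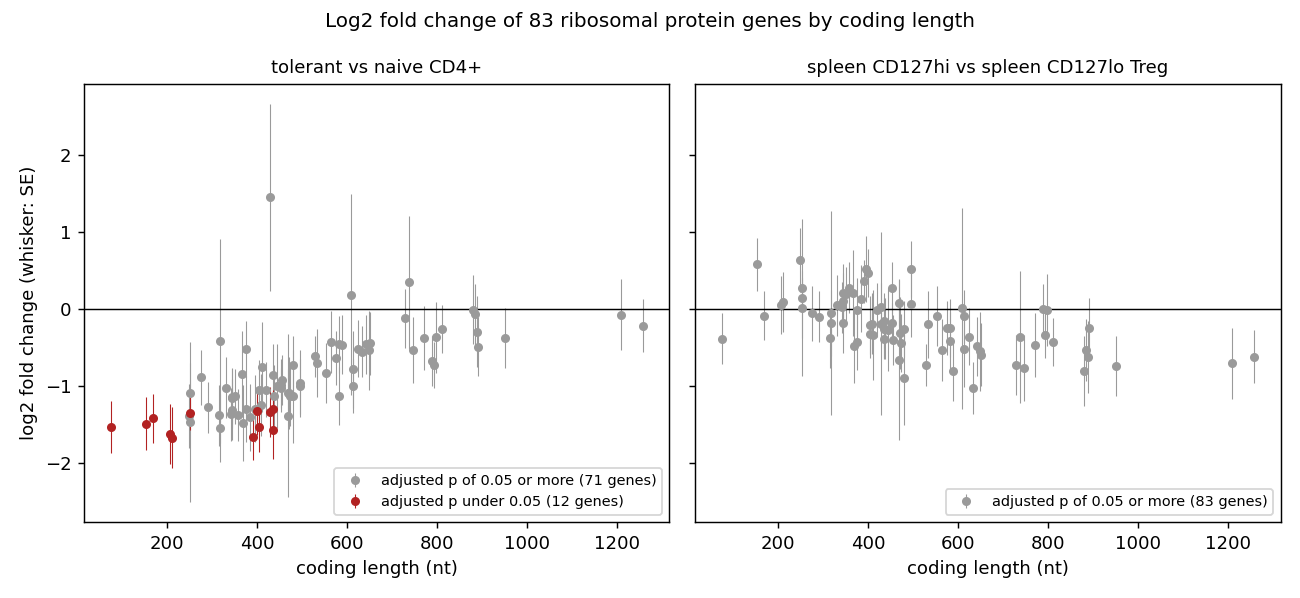
Log2 fold change of the 83 members (whiskers, SE) against coding length in nt, for tolerant against naive CD4+ cells and for SP/CD127hi against SP/CD127–/lo Tregs, with called members marked. In the first comparison the called genes lie at the short end (rho = 0.78), and in the second the order is opposite (rho = -0.62) with no gene called.

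Since the TOP motif at the start of the mRNA is the shared feature of these genes, the bases around the annotated transcription start were read for the called members and for Rpl4 as a member with a small estimate. Each sequence has 25 bases, 5 before and 20 from the start, of GRCm38.p6 as given by RefSeq. Capitals mark a C followed by at least 4 pyrimidines (C or T) that begins within 5 bases of the start.
Rps27, chr3:90213629-90213653, minus strand: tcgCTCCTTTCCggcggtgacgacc
Rps15a, chr7:118116128-118116152, minus strand: gccatCTTCCCTCgccggtgagtga
Rpl38, chr11:114668575-114668599, plus strand: tcgttCTTTCCCCgttctcttcggt
Rps24, chr14:24490673-24490697, plus strand: ggtCCTTCCTTgcgcgttgatatga
Rps23, chr13:90923117-90923141, plus strand: gggcggggCTTCCCgcaatgccttg
Rpl39, chrX:37085203-37085227, minus strand: gCCTCTagcgacttcttctaatcgc
Rpl26, chr11:68901561-68901585, plus strand: cttacagaaccggaagtcgcgtgta
Rpl41, chr10:128549149-128549173, minus strand: ggctcggaagtgacgacaccgagca
Rps28, chr17:33824543-33824567, minus strand: gcggtctcgcgagagcgaaagtgag
Rpl4, chr9:64173382-64173406, plus strand: tgtgggagcagccgggtagagagga
The first 6 windows hold the run and the last 4 do not.

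Such a run was found in 30 of the 66 members with an entry (45.45%), in 21.7% of other protein-coding genes and in 18.35% of all windows of this length. The 3 annotated starts of Rps19 had none, and Rpl32 and Rps29 had no entry. A window without the run says only that these letters are not next to the annotated start. The values that follow are for the 83 members with at least 10 CPM. Members with the run had a median log2 fold change of -1.02 in tolerant against naive CD4+ cells (6 of 30 called), members without it -0.73 (4 of 33 called) and members without an entry -1.07 (2 of 20 called). With all libraries, called genes thus occurred with and without the run. Without naive CD4+ replicate 2 the only called member was Rps27, which has the run, and the medians here include that library.

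Genes that act beside the ribosomal proteins were taken from fixed lists. None of 19 genes for elongation factors and other TOP mRNAs, 30 initiation factors, 55 ribosome biogenesis genes, 16 genes of MYC, mTORC1 and LARP1, and 77 mitochondrial ribosomal proteins was called in tolerant against naive CD4+ cells. Their median log2 fold changes were -0.16, 0.20, 0.17, -0.49 and -0.01 in that order, against -1.01 for the cytosolic ribosomal proteins. Outside the naming rule, Fau, whose ubiquitin-like fusion yields a small-subunit protein, had 505 ± 92.7 CPM in naive and 299.8 ± 71.1 CPM in tolerant CD4+ cells (SD, n = 3, log2 fold change -0.75, adjusted p = 0.692). Rack1, a scaffold on the small subunit, had 685 ± 164 and 712 ± 92.9 CPM (SD, n = 3, log2 fold change 0.06).

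Tregs were compared with naive CD4+ cells, the Foxp3– reference. The 4 comparisons below share the 3 naive CD4+ libraries with each other and with the comparison above, so that their results are not independent. In graft Tregs 4 members were called lower by edgeR's quasi-likelihood test (0.26% of all genes were) and 48 were lower at an unadjusted p under 0.05 (6.29% of all genes were). The median log2 fold change was -0.85 over members and -0.22 over all genes. Rps19 had 2078, 1881 and 1659 CPM in graft Tregs, below all naive CD4+ libraries (log2 fold change -1.48 ± 0.25, SE, adjusted p = 1.02e-05). Rps27 had 3638, 3861 and 3091 CPM (-1.0 ± 0.22, SE, adjusted p = 0.00384), Rps29 had 943, 920 and 781 CPM (-1.29 ± 0.32, SE, adjusted p = 0.0188) and Rpl32 had 1224, 1161 and 865 CPM (-1.20 ± 0.32, SE, adjusted p = 0.0360). Graft libraries were close together in each of these genes. Without naive CD4+ replicate 2 only Rps19 was called, with a log2 fold change of -1.13, and leaving out any 1 graft library left 2. Without naive CD4+ replicate 2, 15 members had an unadjusted p under 0.05 and the median was -0.61, and without graft replicate 3 there were 32 such members. Leaving out naive CD4+ replicate 1 gave 15 calls. The share of mitochondrially encoded RNA was 4.33% to 6.74% in graft libraries, and 5 of its 12 genes were called higher, among them mt-Nd4 (log2 fold change 1.54), mt-Nd2 (1.47) and mt-Nd1 (1.07), subunits of complex I. Kidney epithelial markers summed to 27.1 to 921 CPM in graft libraries, and all 6 islet markers were at 0 there. The part of these RNAs in the result was not tested.

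In SP/naive Tregs 1 member was called lower (background 0.107%) and 21 were lower at an unadjusted p under 0.05 (background 3.23%), with a median log2 fold change of -0.62. The called gene was Rps19, with 2445, 2194 and 3263 CPM and a log2 fold change of -0.99 ± 0.25 (SE, adjusted p = 0.0351). Its highest library overlapped with the lowest naive CD4+ library. No member was called without naive CD4+ replicate 2 or without SP/naive replicate 1 or 2, and 4 were without naive CD4+ replicate 1 and 2 without replicate 3. Members at an unadjusted p under 0.05 numbered 3 without naive CD4+ replicate 2, with a median of -0.35, and 45 without replicate 1. They numbered 8 and 10 without SP/naive replicates 1 and 2, and 14 without naive CD4+ replicate 3. In SP/CD127hi Tregs 2 members were called lower (background 0.162%) and 26 were lower at an unadjusted p under 0.05 (background 4.51%), with a median of -0.57. Rps19 had 1334, 3181 and 2272 CPM there, which ranged more widely than in graft Tregs (-1.21 ± 0.25, SE, adjusted p = 0.00123). Rpl13, a large-subunit gene, had 593, 823 and 610 CPM against 1258, 2033 and 1631 CPM in naive CD4+ cells, without overlap (-1.28 ± 0.34, SE, adjusted p = 0.0424). No member was called without naive CD4+ replicate 2 or SP/CD127hi replicate 1, 1 without naive CD4+ or SP/CD127hi replicate 3, 6 without naive CD4+ replicate 1 and 3 without SP/CD127hi replicate 2. Members at an unadjusted p under 0.05 numbered 7 without naive CD4+ replicate 2, with a median of -0.32, 8 without SP/CD127hi replicate 1, 17 without naive CD4+ replicate 3 and 40 without naive CD4+ replicate 1. In SP/CD127–/lo Tregs no member was called by edgeR's quasi-likelihood test, the likelihood ratio test, DESeq2 or limma voom (0.469% of all genes were called by the first), and 12 were lower at an unadjusted p under 0.05 (background 5.5%). The median there was -0.37, against -0.26 over all genes and 0.01 over genes with a mean log2 CPM over 3. The smallest adjusted p was that of Rps27 (0.0542), and 2 members were called without naive CD4+ replicate 1 and 1 without naive CD4+ replicate 3 or without SP/CD127–/lo replicate 1. Without naive CD4+ replicate 2, 1 member had an unadjusted p under 0.05 and the median was -0.12, and without naive CD4+ replicate 1 there were 28 and the median was -0.62. There were 7 such members without naive CD4+ replicate 3, 4 without SP/CD127–/lo replicate 2 or 3, and 20 with a median of -0.64 without SP/CD127–/lo replicate 1. Other RNAs moved with these 3 comparisons. Ighm, a B cell gene, and Lyz2, a myeloid gene, were called higher and Ebf1 lower in each, and Malat1 was called lower in SP/CD127hi (-1.32) and SP/CD127–/lo Tregs (-2.33). Cd3d was called lower in SP/CD127hi (-1.41) and Ms4a1 lower in SP/CD127–/lo Tregs (-6.51). T cell markers summed to 4437 to 7159 CPM in SP/naive and 4605 to 5610 CPM in SP/CD127hi Tregs, below the 7381 to 8955 CPM of naive CD4+ cells. In SP/CD127–/lo Tregs they summed to 7578 to 11136 CPM, with overlap. Myeloid markers summed to 27.0 to 123 CPM in SP/naive, 8.56 to 302 CPM in SP/CD127–/lo and 146 to 248 CPM in SP/CD127hi Tregs, and B cell markers to 867 to 1864 CPM over the 3 subsets. The part of these RNAs in the results was not tested.

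Naive CD4+ cells were also set against CD45+CD4– cells from the spleen of naive mice. Rps19 (log2 fold change 1.11 ± 0.25, SE, adjusted p = 0.00246) and Rps27 (0.78 ± 0.22, SE, adjusted p = 0.0456) were called higher in CD4+ cells by edgeR's quasi-likelihood test, where 0.379% of all genes were called higher. At an unadjusted p under 0.05, 20 members were higher (background 4.15%), and the median log2 fold change was 0.55. In both genes the libraries of the groups overlapped, since naive CD45+CD4– replicate 3 was above naive CD4+ replicate 1. Without naive CD45+CD4– replicate 3, 8 members were called, and without naive CD4+ replicate 1, 6. No member was called without naive CD4+ replicate 2 or naive CD45+CD4– replicate 2, and 1 without naive CD45+CD4– replicate 1. At an unadjusted p under 0.05 there were 8 members without naive CD4+ replicate 2, with a median of 0.28, and 36 without naive CD4+ replicate 1 or without naive CD45+CD4– replicate 3, with medians of 0.79 and 0.81. Without naive CD45+CD4– replicates 1 and 2 there were 9 and 13, and without replicate 1 the median was 0.34. Malat1 (1.34), mt-Co1 (1.06) and mt-Cytb (0.69) were also called higher in CD4+ cells, as were 6 of the 7 T cell markers, and all 8 B cell markers and the myeloid markers S100a8, S100a9 and Lyz2 were called lower. Their part in the result was not tested.

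Among Tregs of spleen and graft no member was called in any of 6 comparisons, neither by edgeR's quasi-likelihood test nor by the likelihood ratio test, DESeq2 or limma voom. SP/CD127hi against SP/CD127–/lo Tregs, the comparison of the 2 fractions of tolerant mice, had a median log2 fold change of -0.21, or 0.02 without SP/CD127–/lo replicate 1, with 0.0907% of all genes called. At an unadjusted p under 0.05, 3 members were lower (background 3.13%), among them Rpl13 and Rpl19 of the large subunit, with log2 fold changes of -1.03 and -0.81. Against SP/naive Tregs, SP/CD127hi Tregs had 2 members at an unadjusted p under 0.05, Rpl39l with a lower and Rpl39 with a higher estimate, against a background of 5.09% (0.0197% adjusted). SP/CD127–/lo Tregs had 0 against a background of 5.46% (0.071% adjusted), although 75 of the 86 estimates were above 0, with a median of 0.19, or -0.05 without SP/CD127–/lo replicate 1. Leaving out each library in turn gave 0 to 9, 1 to 6 and 0 to 4 members at an unadjusted p under 0.05 in these 3 comparisons. Other RNAs moved with them. In SP/CD127hi against SP/CD127–/lo Tregs Cd3g (-1.43) and Cd3d (-1.36) were called lower and Ms4a1 and Malat1 (1.01) higher, and T cell markers summed to 4605 to 5610 against 7578 to 11136 CPM, without overlap. Against SP/naive Tregs, Malat1 was called lower in both fractions (-1.30 in SP/CD127hi and -2.31 in SP/CD127–/lo), Cd79a higher in SP/CD127hi, and Trac (1.74), mt-Co1 and mt-Cytb (0.95) higher and Ms4a1 lower in SP/CD127–/lo Tregs. Their part in the medians was not tested.

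Graft Tregs had medians of -0.22 against SP/naive, -0.28 against SP/CD127hi and -0.50 against SP/CD127–/lo Tregs. Leaving out each library in turn gave medians of -0.31 to -0.12 against SP/naive, with the weakest without SP/naive replicate 3. Against SP/CD127hi Tregs it gave -0.47, without SP/CD127hi replicate 1, to -0.16, without replicate 3, and against SP/CD127–/lo Tregs -0.64 to -0.22, the latter without SP/CD127–/lo replicate 1. At an unadjusted p under 0.05 there were 2 members against SP/naive Tregs, Rpl17 and Rps19, both lower (background 5.35%), 9 against SP/CD127hi Tregs (background 8.73%) and 6 against SP/CD127–/lo Tregs, all lower (background 4.3%). With adjustment, 0.13%, 0.103% and 0.0829% of all genes were called in these comparisons. Without 1 library the counts were 0 to 2, 1 to 14 and 0 to 11 in these comparisons. The 9 members against SP/CD127hi Tregs had 8 lower estimates, among them Rps12 (-1.07), Rps21 (-1.02) and Rpl12 (-1.0). Among RNAs that moved with these comparisons, 6 of the 12 mitochondrially encoded genes were called higher in graft than in SP/naive Tregs, with mt-Cytb at 1.69, as were 3 against SP/CD127hi and 4 against SP/CD127–/lo Tregs. Their summed levels were 49446 to 75020 CPM in graft and 17587 to 51404 CPM in splenic Treg libraries, with an overlap from SP/CD127–/lo Tregs alone. Kap, a kidney gene, was called higher in all 3, with kidney markers summing to 27.1 to 921 CPM in graft and 0 to 7.35 CPM in splenic Tregs. Ms4a1 was called lower against SP/naive and SP/CD127hi Tregs, Cd74 higher against SP/naive Tregs, and Malat1 was called higher against SP/CD127hi (0.85) and SP/CD127–/lo Tregs (1.86). Their part in the medians was not tested.

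In the DLN no member was called in any of the 3 comparisons by the same 4 tests. DLN/CD127hi against DLN/naive Tregs had 6 members at an unadjusted p under 0.05 (background 10.6%, and 0.951% with adjustment). Of these, 4 had lower estimates, among them Rpl7l1, Rpl15 and Rps19, and Rps4x and Rpsa had higher ones. The median log2 fold change was -0.14 over members and also -0.14 over genes with a mean log2 CPM over 3. For members it was 0.01 with RLE factors or DESeq2, 0.13 without DLN/naive replicate 3 and 0.02 without DLN/CD127hi replicate 1. Without DLN/naive replicate 2 or DLN/CD127hi replicate 3 it was -0.34. DLN/CD127–/lo against DLN/naive Tregs had 5, all lower (background 3.37%, and 0.355% with adjustment), with a median of -0.18. Among them were Rps7 (-1.21), Rps27 (-0.66), Rpl32 (-0.63) and Rps19 (-0.51). Without DLN/naive replicate 2 or DLN/CD127–/lo replicate 3, 1 member was called and the median was -0.35, and without DLN/naive replicate 3 the median was 0.04. Over genes with a mean log2 CPM over 3 it was -0.08. DLN/CD127hi against DLN/CD127–/lo Tregs had 3 (background 8.75%, and 0.418% with adjustment), with Rps7 (0.80) and Rps27 (0.45) higher and Rpl4 (-0.70) lower. The median of 0.09 fell to between -0.06 and -0.02 when DLN/CD127–/lo replicate 2 or DLN/CD127hi replicate 2 or 3 was left out. It rose to 0.17 without DLN/CD127–/lo replicate 1, 0.26 without DLN/CD127–/lo replicate 3 and 0.28 without DLN/CD127hi replicate 1. The median over genes with a mean log2 CPM over 3 was -0.08 there. Leaving out each library in turn gave 2 to 9, 2 to 13 and 1 to 8 members at an unadjusted p under 0.05 in the 3 comparisons, in the order above. B cell markers summed to 413 to 951 CPM in DLN/naive, 1065 to 1695 CPM in DLN/CD127–/lo and 1811 to 2948 CPM in DLN/CD127hi Tregs, without overlap. Myeloid markers summed to 2.80 to 429 CPM in DLN/naive and 616 to 880 CPM in DLN/CD127hi Tregs. In DLN/CD127hi against DLN/naive Tregs, 5 of the 8 B cell markers, S100a8, Cd8b1, mt-Co1 and mt-Nd4 were called higher and Malat1 was called lower (-1.47). In DLN/CD127–/lo against DLN/naive Tregs, Cd79b, Ighm and Ms4a1 were called higher. In DLN/CD127hi against DLN/CD127–/lo Tregs, Cd74, S100a8, Cd8a, mt-Nd2 and mt-Nd4 (1.21) were called higher and Malat1 lower (-0.92). The part of these RNAs in the results was not tested. The naive lymph node donors were female and the tolerant mice male, so that sex and tolerance cannot be told apart in comparisons with DLN/naive Tregs. The difference between the CD127hi effects of spleen and DLN had no member past the adjusted threshold (background 0.118%). Rpl14, Rpl13 and Rps18 were more negative in the spleen at an unadjusted p under 0.05 (background 3.16%).

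Paralogs of ribosomal proteins showed how the make-up of the set varied between subsets. Rps27l, a p53 target that differs from Rps27 in a few residues, was the most abundant of them. Its share of the summed CPM of Rps27 and Rps27l was 7.81% ± 0.486 in naive and 9.14% ± 1.34 in tolerant CD4+ cells, and 7.85% ± 1.96 in naive and 11.8% ± 0.55 in tolerant CD45+CD4– cells (SD, n = 3 each). It was 11.1% in SP/naive, 12.9% in SP/CD127hi, 13.8% in graft and 14.7% in SP/CD127–/lo Tregs. In the DLN it was 20.9% ± 5.25 in naive, 27.7% ± 1.33 in CD127–/lo and 28.4% ± 3.34 in CD127hi Tregs (SD, n = 3 each), on the other sequencer. The CPM of Rps27l itself was lowest in tolerant CD4+ cells, at 274 ± 28.2 (SD, n = 3), and highest in DLN/CD127hi Tregs, with 596, 770 and 752. The fold change of Rps27l in tolerant against naive CD4+ cells was -1.10 on the log2 scale and did not pass the test (adjusted p = 0.529).

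Rpl22, which αβ T cells need for their development, had a log2 fold change of -1.41 in tolerant against naive CD4+ cells (adjusted p = 0.442), and its paralog Rpl22l1 one of -0.84. Rpl22 had 644 ± 280 CPM in naive and 243 ± 21 CPM in tolerant CD4+ cells (SD, n = 3 each). Rpl22l1 made up 33.4% ± 5.69 of the pair in naive and 41.1% ± 7.06 in tolerant CD4+ cells (SD, n = 3 each), and between 25.6% and 41.1% over the 11 subsets. Rpl7l1 had group means of at most 12.1% of its pair with Rpl7. The paralogs known from testis or muscle were found in few libraries. Rpl10l had 1 count in each of 5 libraries, Rpl3l had 1 to 8 counts in 13, and Rpl39l had 1 to 87 counts in 10 and none in the others. In naive CD4+ cells Rpl39l was found in replicate 3 alone, with 87 counts, and in tolerant CD4+ cells it was at 0 in all 3 libraries.

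**Figure D5:**
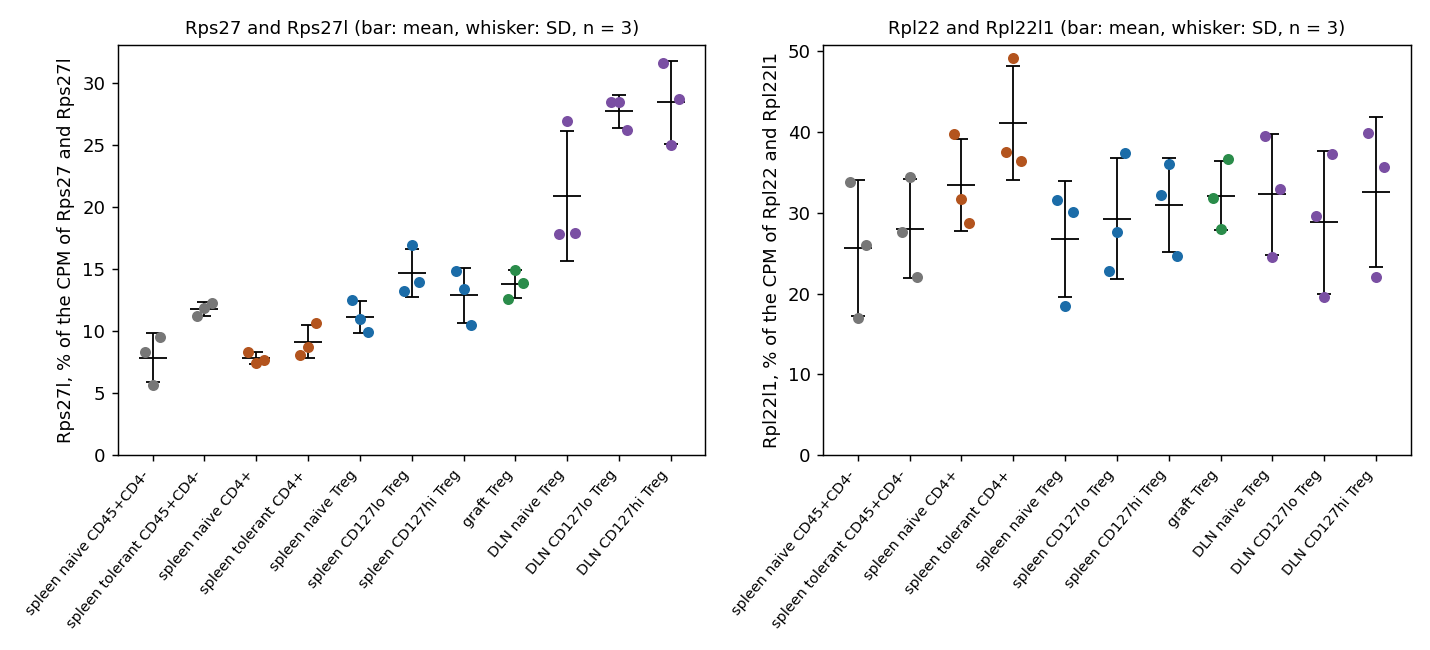
Share of Rps27l in the summed CPM of Rps27 and Rps27l, and of Rpl22l1 in that of Rpl22 and Rpl22l1, in percent, for each of the 33 libraries with the mean and SD of 3 libraries. The mean share of Rps27l is 7.81% and 9.14% in naive and tolerant CD4+ cells and highest in the DLN, at 20.9% to 28.4%.

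Among the 83 members with at least 10 CPM, the widest ranges of group means over spleen and graft, on the log2 scale, were those of Rps19bp1 (2.68), Rpl13a (2.44), Rpl36 (1.70), Rps19 (1.65) and Rpl32 (1.62). Rpl13a, a large-subunit gene also known for its part in the silencing of inflammatory mRNAs, was an exception to the order of subsets. Its mean in CD45+CD4– cells was 48.0 ± 14.1 CPM for tolerant and 35.1 ± 3.49 CPM for naive mice, but in naive CD4+ cells only 17.4 ± 5.19 CPM (SD, n = 3 each). Rpl36 had its highest mean in naive CD4+ cells and its lowest of spleen and graft in tolerant CD45+CD4– cells, with 1172 ± 590 CPM and 329 ± 23 CPM (SD, n = 3 each).

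The members varied together from library to library. Over all 33 libraries the median Pearson r of log2 CPM was 0.69 over 3403 pairs of the 83 genes, and 97.9% of the pairs had an r above 0, while pairs of 7468 other genes had a median of 0.05. After the mean of each subset was taken away the medians were 0.62 and 0.005. These values share libraries, depth and composition, and are a description. The closest pair was Rps27 and Rps29 (r = 0.97), and within subsets it was Rps14 and Rps16 (r = 0.96). Rps29 and Rps23 had the highest mean r with the other members, at 0.77 and 0.76. The members with the lowest mean r were Rps19bp1 (-0.0006), Rpl13a (0.14), Rps27l (0.24), Rpl36al (0.27) and Rpl7l1 (0.28).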

How the data were processed

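Amplified cDNA of sorted cells (SMART-Seq v4, Nextera XT) was sequenced as paired ends. Per the submitters' processing notes and the methods, the authors used Trim Galore and FastQC on the reads and STAR for the alignment to mm10, to which EGFP had been added. Counting is credited to HTSeq in the methods, whereas the layout is that of STAR. The deposited values are raw, whole-number counts per gene of reads that mapped to a single place. Reads that mapped to several places were tallied apart and not used. Of the counts, the column over both strands was used. Reads of overlapping or antisense genes therefore cannot be told apart.

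Members, lists and tests were chosen with earlier results of these data known. Gene symbols and positions came from GENCODE vM21 (GRCm38). The 25347 genes that reached 1 CPM in 1 library or more were scaled by TMM and tested with edgeR 4.0.16 (quasi-likelihood test, Benjamini-Hochberg adjustment over all genes tested) in 1 model of all 33 libraries with 1 mean per group, for 16 comparisons and 2 differences between comparisons. Called means an adjusted p under 0.05. Samples were grouped by their labels. Log2 CPM had a prior count of 2. Standard errors were taken from the log2 fold change and the F statistic. Named were the called members, the 3 largest log2 fold changes in each direction where members were called, paralogs, Rplp0, Rplp1, Rplp2 and Rpsa, the 5 highest and lowest per kilobase, the 5 with the widest range, and Fau and Rack1, outside the rule. Results of some genes are not reported here. Members named for an unadjusted p, or as examples of genes with little change (Rpl4 and Rps2), and those of the correlations were chosen after their values were seen.

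Alternatives were the likelihood ratio test, DESeq2 1.42.0, RLE factors, TMM factors without ribosomal protein and mitochondrially encoded genes, no filter, a model of the compared libraries, the replicate number as a block, leaving out each library and, chosen after seeing the data, voom of limma 3.58.1. R 4.3.3 and Python 3.11.15 were used. The scripts were tested on simulated data. The authors' own gene ontology analysis and the flow cytometry were not used here.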

Additional observations from a re-analysis of the deposited data

How the results depend on the processing

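No called log2 fold change reversed under any alternative. The medians over members, which have no test, changed sign in the 5 comparisons named above with such values and in SP/CD127hi against SP/naive Tregs, where the median was -0.0020 and became 0.02 in a model of the compared libraries, 0.15 without SP/naive replicate 3 and 0.17 without SP/CD127hi replicate 1. The likelihood ratio test called 0 members in all 5 comparisons that had calls. For tolerant against naive CD4+ cells limma voom called 5 and a model of the compared libraries 0. For SP/naive Tregs against naive CD4+ cells, RLE factors, no filter and the replicate block called 2 each, and limma voom, DESeq2 and the compared libraries 0. For SP/CD127–/lo Tregs against naive CD4+ cells, RLE factors and no filter called 1 each. DESeq2 called 7 for graft Tregs against naive CD4+ cells, 2 of them among the 4 of the quasi-likelihood test, and limma voom 4, 1 of them among those. For SP/CD127hi Tregs DESeq2 kept 1 of the 2 calls. For naive CD4+ against CD45+CD4– cells, RLE factors and limma voom called 1 each, which for limma voom was neither of the 2 genes named above, and DESeq2 and the compared libraries 0. The cause of these differences was not tested, apart from the compared libraries holding fewer samples. RLE factors moved the median of all genes from 0.40 to 0.60 in DLN/CD127hi and from 0.58 to 0.71 in DLN/CD127–/lo against DLN/naive Tregs. The share of graft Tregs was 4.78% without mitochondrially encoded genes in the denominator, against 4.52% with them.

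Leaving out each library gave 1 to 19 calls for tolerant against naive CD4+ cells, 1 to 15 for graft, 0 to 4 for SP/naive, 0 to 2 for SP/CD127–/lo and 0 to 6 for SP/CD127hi Tregs against naive CD4+ cells. It gave 0 to 1 for DLN/CD127–/lo against DLN/naive Tregs and 0 to 8 for naive CD4+ against CD45+CD4– cells.

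Deviations of same-numbered libraries had correlations of -0.0807 to 0.0942, and in 3 comparisons all 3 libraries correlated best with their own number. Low correlations over all genes cannot exclude shared mice, so that it is unknown whether the replicate numbers pair the samples. With the replicate block 16 members were called in tolerant against naive CD4+ cells, 2 in SP/naive and 2 in SP/CD127–/lo Tregs against naive CD4+ cells, 1 in DLN/CD127–/lo against DLN/naive Tregs and 6 in naive CD4+ against CD45+CD4– cells. The 12 calls of the first comparison all remained under RLE factors, TMM factors without these genes, no filter and the block, 6 under DESeq2 and 3 under limma voom.

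Depth limits Rpl3l, Rpl39l and Rpl10l, and all members in the DLN are measured at lower depth. Libraries are 3 per group, and leaving out 1 library changed the count of calls in 7 of the 16 comparisons.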
